A study of Mus musculus with 12 samples.

Results

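The 10 interferon-inducible antiviral genes followed here were Ifit1, Ifit2, Ifit3, Isg15, Isg20, Mx1, Rsad2, Usp18, Ifih1 and Ddx58. They were taken by gene symbol, and 10 of the 10 were found among the 23991 gene IDs of each library. The libraries hold polyadenylated RNA of CD4+ T cells of male C57BL/6 mice, 8 to 10 weeks old, purified from spleens or lymph nodes by magnetic depletion of other cells. Cells were wild type (WT) or Adcy10-/-, which lack soluble adenylyl cyclase, a source of the second messenger cAMP, and were cultured for 18 hours. The 4 groups, with 3 libraries each, were WT and Adcy10-/- cells in baseline medium and WT and Adcy10-/- cells in medium with polarizing cytokines. The sample titles carry the word Th17 in all 4 groups, the baseline ones included, with plus before it in the cytokine groups. In library names Adcy10-/- is written KO.

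Per the labels, cells were stimulated by coated anti-CD3 at 10 µg/mL together with anti-CD28 at 2 µg/mL. The cytokines named are IL-6 at 25 ng/mL and both IL-23 and IL-1β at 20 ng/mL, and interferon-γ and IL-4 were neutralized by antibodies at 1 µg/mL. These additions are listed in the same words for every sample, so which of them the baseline medium lacked is not known here. The labels do not say whether the libraries of a group came from separate mice, and p-values therefore measure only the spread between these libraries. Levels are FPKM, reads scaled to transcript length and library size. Relative depth, read from the steps between low values, spanned 0.731 to 1.02 of WT baseline 1, while absolute depth is unknown. Adcy10 was listed at 0 in 12 of 12 libraries, so its level does not check the genotype labels. The summed level of 8 CD4 T cell markers was 1664 to 2077 FPKM.

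Type I interferons bind the receptor formed by IFNAR1 and IFNAR2, and the kinases JAK1 and TYK2 then activate a complex that includes STAT2 and IRF9 and switches on antiviral genes through the interferon-stimulated response element. The cytosolic helicases MDA5 (Ifih1) and RIG-I (Ddx58) sense viral RNA, and the IFIT proteins, MX1, viperin (Rsad2) and ISG20 act on viral RNA or replication. ISG15 is a ubiquitin-like protein joined to other proteins, from which USP18 removes it, and USP18 also dampens signaling at the interferon receptor.

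The response element can be searched for in the DNA before each gene. RefSeq promoter windows (build GRCm38.p6, 250 bases before to 50 after a start) were matched for 8 of the 10 genes, and the other 2 were not used here. The letters GAAANNGAAA were searched on both strands. They occurred in 6 of the 8 matched genes and in 3.44% of all 32851 windows (3.92% of the 7682 tested genes with a window). Ifit1, Ifit3, Isg15 and Rsad2 held them before the start, Ifih1 and Ddx58 only after it (first base 33 and 3 bases into the transcript), and no window of Ifit2 or Isg20 held them. The 4 upstream stretches are shown because they hold the searched element before the start. Capitals mark the match. The sequences are on the strand of the gene, so a match on the other strand appears as its reverse complement.
Ifit1: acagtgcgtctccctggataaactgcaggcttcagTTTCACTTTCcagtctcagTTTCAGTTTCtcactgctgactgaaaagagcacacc
Ifit3: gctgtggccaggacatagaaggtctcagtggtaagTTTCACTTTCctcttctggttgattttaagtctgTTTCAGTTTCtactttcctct
Isg15: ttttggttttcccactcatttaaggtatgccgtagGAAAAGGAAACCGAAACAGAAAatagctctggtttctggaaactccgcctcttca
Rsad2: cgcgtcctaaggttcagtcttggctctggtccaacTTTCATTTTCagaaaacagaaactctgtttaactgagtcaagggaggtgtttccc

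These lie at chr19:34640750-34640839 (plus strand) for Ifit1, chr19:34583338-34583427 (plus) for Ifit3, chr4:156200842-156200931 (minus) for Isg15 and chr12:26456518-26456607 (minus) for Rsad2. Ifit1 holds 2 matches, 104 and 85 bases before the start, and Ifit3 holds 2, at 156 and 122 bases. Isg15 holds 3 that overlap, the farthest 78 bases before the start, and Rsad2 holds 1 at 120 bases. A match describes the letters only. The expression files use build mm9, so no coordinate of theirs was set against these.

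The genes spanned a wide range of levels. Isg15 (median of 12 libraries 9.44 FPKM) and Isg20 (9.14) stood highest, followed by Usp18 (6.00) and Ifit2 (4.61). Ddx58 (1.99), Ifit1 (1.73), Ifih1 (1.16) and Ifit3 (0.858) formed a lower set, and Rsad2 (0.128) and Mx1 (0.115) stood lowest. Neighbors in this order overlapped in their ranges, with 2 exceptions. The lowest Ifit2 library (3.25 FPKM) lay above the highest Ddx58 library (3.02), and the lowest Ifit3 library (0.438) lay above the highest libraries of Rsad2 (0.289) and Mx1 (0.344).

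**Figure D1:**
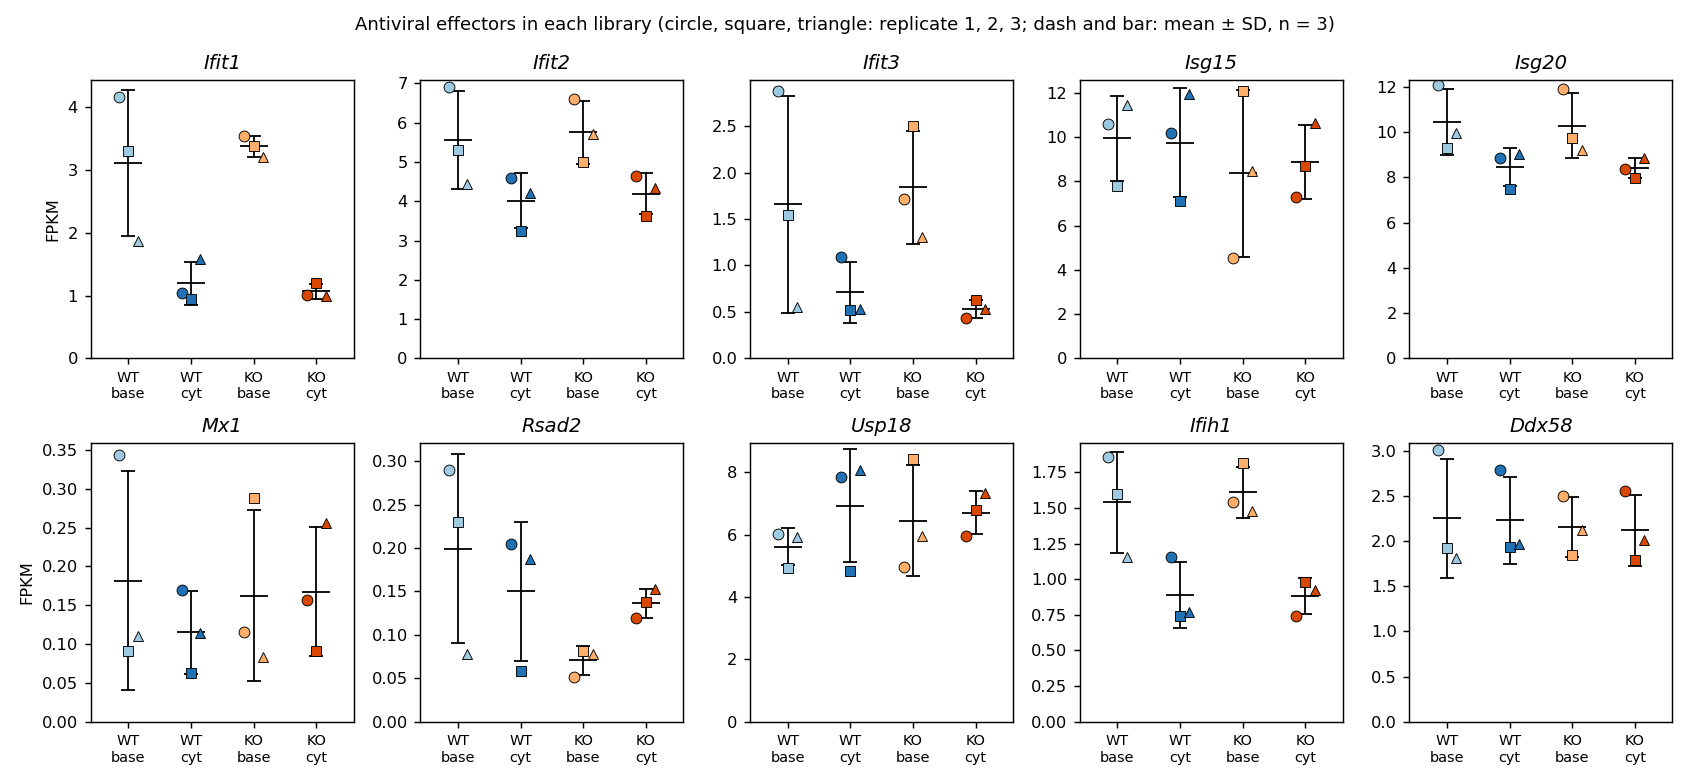
FPKM of each of the 10 genes in the 12 libraries, on axes that start at 0, by genotype (WT, KO for Adcy10-/-) and medium (base, baseline; cyt, with cytokines). Circles, squares and triangles are replicates 1, 2 and 3, and the dash and bar are mean ± SD (n = 3); Ifit1, Ifih1 and Isg20 show all 6 cytokine libraries below all 6 baseline libraries.

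Adding polarizing cytokines went with lower levels of 5 genes when the effect was averaged over genotypes: Ifit1, Ifit2, Ifit3, Ifih1 and Isg20. Ifit1 fell to 34.8% and Ifit3 to 35.5% of the baseline mean. Isg15, Usp18 and Ddx58 did not pass the test in either direction. Of the 10 genes 8 were tested, those that reached 1 FPKM in 3 libraries or more. Calls are from limma on log2(FPKM + 1) at an adjusted p under 0.05, with Benjamini-Hochberg adjustment over 10126 genes, and the added 1 understates the changes of low genes. Among all tested genes 6.68% were called lower and 6.57% higher. The median change of the 8 genes was -0.32 on this log2 scale, against -0.02 for all tested genes. Ifit3 (6 libraries at 1 FPKM or more) and Ifih1 (7) passed the level filter mainly through the baseline libraries, where they are high, so neither count nor median supports anything further. In bulk RNA, fewer expressing cells and less RNA per cell cannot be told apart.

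Among the sensors, Ifih1 fell and Ddx58 did not pass. Ifih1 stood at 1.86, 1.60 and 1.16 FPKM in WT baseline libraries 1 to 3 and at 1.15, 0.745 and 0.770 with cytokines. Adcy10-/- cells held 1.54, 1.81 and 1.48 at baseline and 0.741, 0.980 and 0.923 with cytokines. The media did not overlap in either genotype, although WT baseline 3 and WT cytokines 1 nearly met. The averaged change was -0.45 ± 0.09 (SE; limma adjusted p = 0.00575), and the mean with cytokines was 56.2% of the baseline mean.

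Ddx58, the other helicase, read 3.02, 1.92 and 1.82 FPKM in WT baseline libraries and 2.79, 1.93 and 1.97 with cytokines. The Adcy10-/- values were 2.50, 1.84 and 2.13 at baseline and 2.55, 1.79 and 2.01 with cytokines. The media overlapped throughout, and the averaged change was -0.01 with a 95% interval from -0.25 to 0.23. The effect of Ifih1 minus that of Ddx58 was -0.44, with that sign in 6 of 6 pairs of libraries of 1 genotype and number. An exact two-sided permutation test that exchanged media freely within each genotype (400 arrangements, smallest possible p 0.005) gave p = 0.005, adjusted p = 0.02 over the 28 pairs of tested genes. Same-numbered libraries deviate together, and an exact permutation that swapped media only within them (64 arrangements), added after the values were seen, gave p = 0.03125, the smallest it allows, and adjusted p = 0.0673. The swapped test could call no pair here, because its smallest p, reached by 13 pairs, adjusted to 0.0673. It therefore does not decide whether the sensors differ once the pairing is kept. Ifih1 passed the level filter mainly through the baseline libraries, so the test with free exchange supports nothing further on this pair either.

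The IFIT genes encode proteins that bind foreign RNA. Ifit1 read 4.16, 3.31 and 1.87 FPKM in WT baseline libraries and 1.05, 0.947 and 1.59 with cytokines. Adcy10-/- libraries read 3.55, 3.38 and 3.21 at baseline and 1.01, 1.21 and 0.990 with cytokines. All 6 cytokine libraries lay below all 6 baseline libraries, as was so for Ifih1 and Isg20 (3 of the 8 tested genes). Over all tested genes the share was 4.40%, and since Ifih1 passed the level filter through the baseline libraries, the count is not read against it. The averaged change was -0.98 ± 0.13 (SE; limma adjusted p = 0.000495).

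Ifit2 read 6.91, 5.31 and 4.45 FPKM at baseline and 4.59, 3.25 and 4.21 with cytokines in WT cells. The Adcy10-/- libraries read 6.59, 4.99 and 5.70, then 4.63, 3.62 and 4.33. WT cytokines 1 lay above WT baseline 3, so the WT media overlapped, while the Adcy10-/- media did not. The averaged change of Ifit2 was -0.38 ± 0.11 (SE; limma adjusted p = 0.0359).

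Ifit3 varied widely between libraries of a group. Its WT values were 2.87, 1.54 and 0.552 FPKM at baseline and 1.09, 0.518 and 0.528 with cytokines. Its Adcy10-/- values were 1.71, 2.50 and 1.30 at baseline and 0.438, 0.625 and 0.527 with cytokines. The WT media overlapped because of WT baseline 3, and the Adcy10-/- media were apart. The averaged change was -0.71 ± 0.19 (SE; limma adjusted p = 0.0332). Reads may be split between copies here: 51.2% of the 50-base windows of Ifit3 transcripts also occur in Ifit3b, listed in the files as I830012O16Rik, and 7.06% of those of Ifit1 occur in Ifit1bl2 (2010002M12Rik). With each gene summed with its copy, the averaged change was -0.87 for Ifit3 (limma adjusted p = 0.0135) and -0.98 for Ifit1 (0.000544).

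Isg20 is an exonuclease that degrades viral RNA. It read 12.1, 9.29 and 9.95 FPKM at baseline and 8.85, 7.49 and 9.04 with cytokines in WT cells. Adcy10-/- cells gave 11.9, 9.74 and 9.23, then 8.39, 7.99 and 8.87. The media did not overlap in either genotype, and the mean with cytokines was 81.4% of that at baseline. The averaged change was -0.26 ± 0.08 (SE; limma adjusted p = 0.0459).

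Neither gene of the ISG15 pair passed. Isg15 read 10.6, 7.79 and 11.5 FPKM in WT baseline libraries and 10.2, 7.09 and 11.96 with cytokines. The Adcy10-/- cells gave 4.52, 12.1 and 8.46 at baseline and 7.31, 8.69 and 10.6 with cytokines. The media overlapped in both genotypes, and KO baseline 1 and 2 were the lowest and highest of the 12 libraries. The averaged change was 0.06 with a 95% interval from -0.38 to 0.49.

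Usp18 read 6.02, 4.92 and 5.92 FPKM at baseline and 7.86, 4.84 and 8.08 with cytokines in WT cells, and 4.98, 8.42 and 5.95, then 5.97, 6.80 and 7.34, in Adcy10-/- cells. These overlapped as well, and the averaged change was 0.15 (95% interval -0.13 to 0.44). The effect of Isg15 minus that of Usp18 was -0.10 (exact two-sided permutation p = 0.45, adjusted p = 0.485, media exchanged freely), which does not show that they respond alike. The effect of Ifit1 lay below that of Isg15 by -1.04 (exact permutation p = 0.01, adjusted p = 0.028) and below that of Usp18 by -1.13 (exact permutation p = 0.005, adjusted p = 0.02), each in 6 of 6 pairs of libraries. Isg15 was not called against the other genes that fell, with adjusted p of 0.158 for Ifit2, 0.0613 for Ifit3, 0.0613 for Ifih1 and 0.245 for Isg20 by the same exact permutation test. Usp18 was called against Ifit3 and Ifih1, and not against Ifit2 or Isg20 (adjusted p = 0.05 for each, by the same exact permutation test).

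Over the 28 pairs of tested genes, 11 were called at an adjusted exact permutation p under 0.05 with free exchange, and 0 with swaps within same-numbered libraries, where 13 pairs stood at the smallest possible p and the smallest adjusted p was 0.0673. Ifit3 and Ifih1 passed the level filter mainly through the baseline libraries, so calls of pairs that hold either gene support nothing further. The scale bears on such comparisons too, since the added 1 shrinks low genes more. With 0.1 added instead, 17 of the 28 pairs were called with free exchange.

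Mx1, a GTPase that blocks viral replication, and Rsad2 stayed below 1 FPKM in 12 of 12 libraries. The level filter left them out of the tests reported here, except the fit of genes of any level, whose results for them are not given. Mx1 read 0.344, 0.0905 and 0.110 FPKM in WT baseline, 0.169, 0.0626 and 0.114 in WT cytokines, 0.115, 0.288 and 0.0839 in Adcy10-/- baseline and 0.157, 0.0906 and 0.256 in Adcy10-/- cytokines. The groups overlapped in every comparison. Rsad2 read 0.289, 0.230 and 0.0782 in WT baseline, 0.205, 0.0584 and 0.187 in WT cytokines, 0.0517, 0.0815 and 0.0783 in Adcy10-/- baseline and 0.119, 0.137 and 0.153 in Adcy10-/- cytokines. In Adcy10-/- cells the 3 cytokine libraries lay above the 3 baseline libraries, at levels below the filter, and the WT media overlapped.

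Within single genotypes, only Ifit1 passed. In WT cells it fell by 0.88 ± 0.18 (SE; limma adjusted p = 0.0186), to 38.4% of its baseline mean, and 2.28% of all tested genes were called lower. In Adcy10-/- cells it fell by 1.08 ± 0.18 (SE; limma adjusted p = 0.00656), to 31.6%, with 2.12% of genes called lower. Libraries of the same number and genotype deviated together, and with the number as a block more genes passed. Over all 10126 tested genes the block called 752 lower in WT and 606 in Adcy10-/- cells, against 231 and 215 without it. With the block set within genotype these were 759 and 645. In WT cells Ifit1, Ifit2 (limma adjusted p = 0.024), Ifih1 (0.0348) and Isg20 (0.0477) passed with the block, and with the block set within genotype Ifit1, Ifit2 (0.0296) and Ifih1 (0.0137). In Adcy10-/- cells Ifit1, Ifit2 (0.0274), Ifit3 (0.0357) and Ifih1 (0.0264) passed with the block, and Ifit2 (0.0345), Ifit3 (0.0113) and Ifih1 (0.00971) besides Ifit1 with the block within genotype. Fitting each genotype's own 6 libraries alone gave an adjusted p of 0.0975 for Ifit1 in WT cells, and there Ifit3 (0.0355) and Ifih1 (0.048) passed in Adcy10-/- cells. Those fits called 117 (WT) and 154 (Adcy10-/-) of all tested genes lower.

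**Figure D2:**
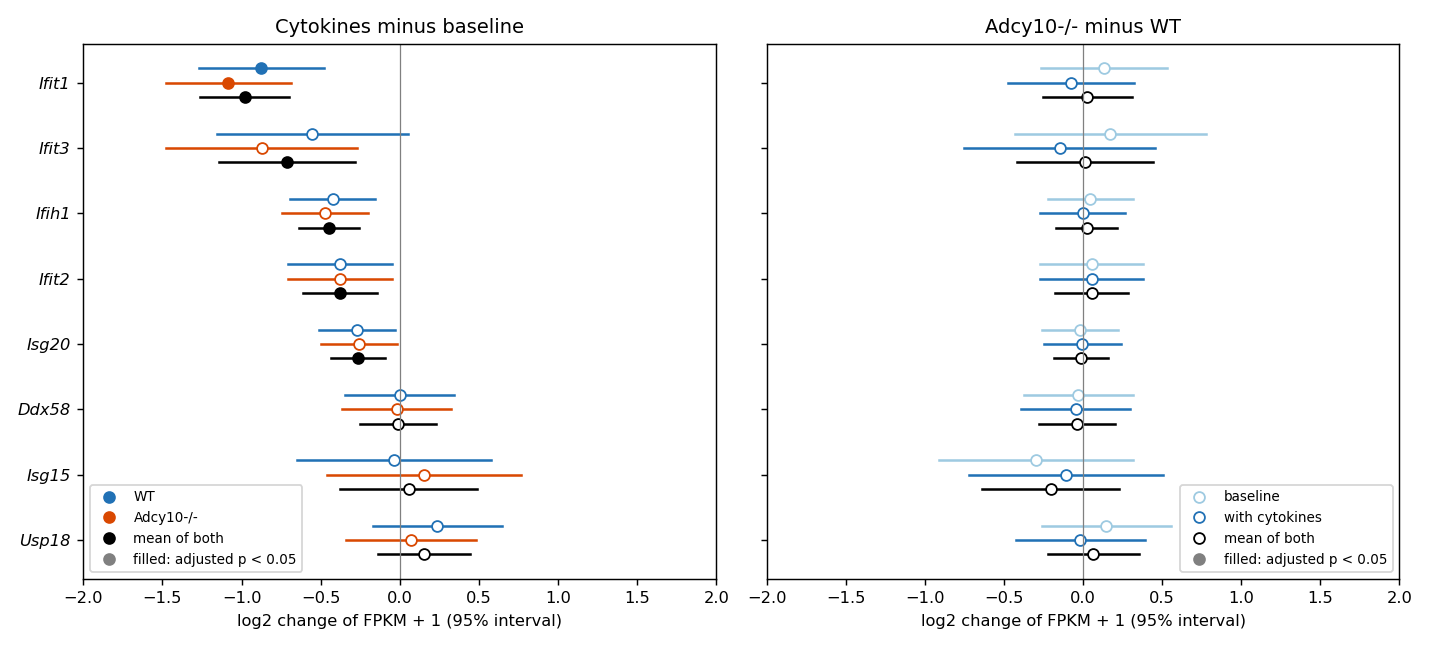
Change in log2(FPKM + 1) with 95% intervals for the 8 tested genes: cytokines minus baseline on the left and Adcy10-/- minus WT on the right, separately and as a mean. Filled points passed an adjusted p of 0.05; on the left the 5 averaged changes from -0.98 (Ifit1) to -0.26 (Isg20) are filled, and on the right none is.

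Several averaged calls did not hold in every fit that left out 1 library. Those fits called 910 to 1300 of all genes for the averaged effect, against 1341 with every library. A lost call did not need a smaller change. Ifit2 was -0.39 without WT cytokines 3, against -0.38 with every library, yet did not pass (limma adjusted p = 0.053). Ifit1 and Ifih1 kept their averaged call in 12 of 12 fits that left out 1 library. Ifit2 kept it in 4 (without WT baseline 3, KO baseline 2, WT cytokines 1 or KO cytokines 1), with adjusted p up to 0.0812 otherwise. Ifit3 kept it in 4 (without WT baseline 1, WT baseline 3, KO baseline 3 or WT cytokines 1), with adjusted p up to 0.0765. Isg20 kept it in 2 (without WT baseline 2 or KO baseline 3), with adjusted p up to 0.1, and lost it under median-ratio scaling (0.0643) and quantile normalization (0.0597). Testing genes of any level ended the averaged calls of Ifit2 (0.073), Ifit3 (0.0658) and Isg20 (0.0814). With the number as a block, also with the block set within genotype, Ifit1, Ifit2, Ifit3, Ifih1 and Isg20 kept their averaged calls. These fits called 1444 and 1479 of all tested genes lower on average, against 676 without a block. In WT cells Ifit1 lost its call without baseline 1 (0.0503), baseline 2 (0.092), cytokines 1 (0.0701) or cytokines 2 (0.071), while Ifit3 (0.0453) and Ifih1 (0.0322) passed without WT baseline 3. In Adcy10-/- cells, through the shared estimate of spread, Ifit3 passed without WT baseline 1 (0.0391) or WT baseline 3 (0.0338), and Ifih1 without these (0.0449 and 0.0359) or without WT cytokines 1 (0.0442).

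Genotype moved none of the 8 genes past the threshold. Adcy10-/- minus WT averaged over media ranged from -0.20 for Isg15 (95% interval -0.64 to 0.23) to 0.07 for Usp18 (-0.22 to 0.35). Between these stood Ddx58 at -0.04, Isg20 at -0.01, Ifit3 at 0.01, Ifih1 at 0.02, Ifit1 at 0.03 and Ifit2 at 0.05. At baseline the changes ran from -0.30 (Isg15) to 0.17 (Ifit3), and with cytokines from -0.15 (Ifit3) to 0.05 (Ifit2). The difference between genotypes in the cytokine effect ran from -0.32 for Ifit3 (95% interval -1.18 to 0.54) to 0.19 for Isg15 (-0.68 to 1.06), and was -0.21 for Ifit1 (-0.77 to 0.35). By limma without the number as a block, 0 of 10126 genes, 0%, passed in each of these 4 comparisons. The members' adjusted p-values were all above 0.99. With that block 3 genes passed for genotype on average, with no member among them. At an unadjusted p under 0.05 there were 118 genes at baseline, 202 with cytokines, 180 on average and 112 for the interaction, with 0 of the 8 in each. With the number as a block these counts over all tested genes were 375, 515, 560 and 335, and the members' share of them is not given here. Same-numbered libraries deviate together across genotypes too, so the fits without the block do not show that genotype has no effect. The averaged intervals of Isg15, Ifit3 and Ddx58 include -0.26, the change of Isg20 with cytokines.

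Isg15's lower Adcy10-/- value at baseline rested on 1 library. KO baseline 1 held 4.52 FPKM, and without it the baseline difference was 0.04. The averaged difference stayed negative in 12 of 12 fits that left out 1 library (-0.35 to -0.03). Without the 4 libraries numbered 1, the averaged difference was 0.07.

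Some pairs of genes varied together between libraries of a group. Deviations from group means, over 12 libraries (the genes of a library share its depth and preparation), correlated at Pearson r = 0.91 between Isg15 and Usp18, 0.93 between Ifit3 and Ifih1 and 0.89 between Ifit2 and Ddx58. These were the highest of the 28 pairs and do not mark separate sets. Ifit2 and Isg20 correlated at 0.79, Ifit1 and Ifit3 at 0.72 and Isg20 and Ddx58 at 0.68. Isg15 and Ddx58 correlated at -0.25, the lowest, and Ifit1 and Isg15 at -0.01. These are descriptions, without a test. Ddx58 and Ifit2 were highest in the library numbered 1 in 4 of 4 groups, and Ddx58 held 2.50 to 3.02 FPKM in those libraries against 1.79 to 2.13 in the other 8.

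**Figure D3:**
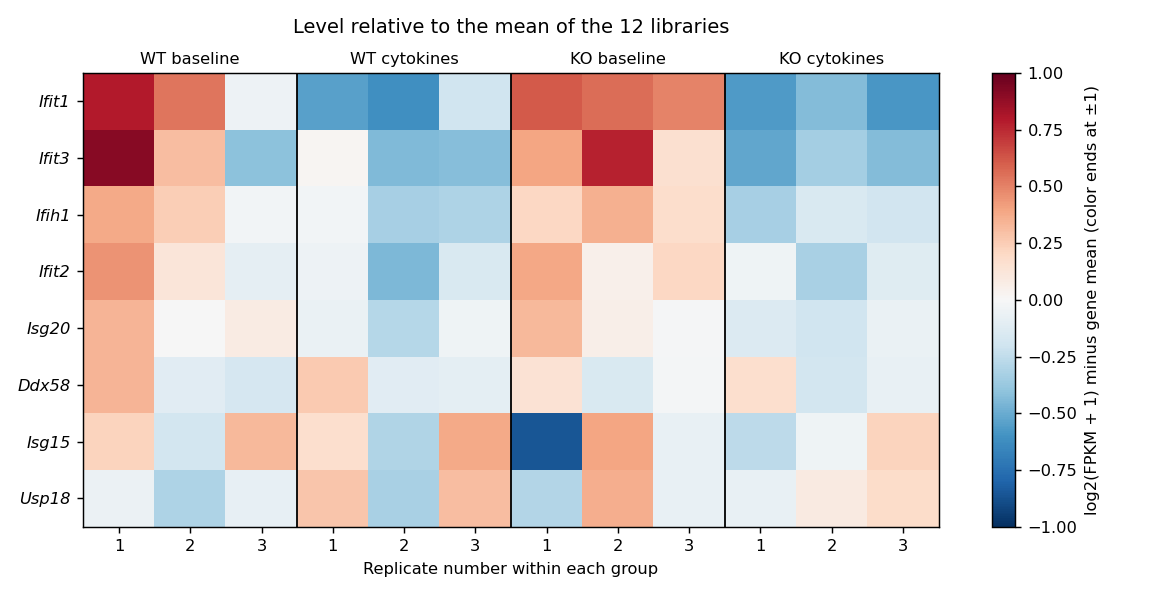
Level of the 8 tested genes in each library as log2(FPKM + 1) minus the gene's mean over 12 libraries, red above and blue below. Ifit1, Ifit3 and Ifih1 are mostly red at baseline and blue with cytokines, Ddx58 is red in the library numbered 1 of each group, and Isg15 is lowest in KO baseline 1.

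The libraries numbered 1 also differed in markers of other cells. The 8 B cell markers summed to 2.18 to 8.22 FPKM in them and to 26.0 to 55.4 in the other 8, and CD4 T cell markers to 2016 to 2077 against 1664 to 1977. The part of this in the results was not tested, but without these 4 libraries, a comparison added after the values were seen, Ifit1 (averaged change -0.84, limma adjusted p = 0.00875) and Ifih1 (-0.43, 0.0216) still passed. Ifit2 (-0.33, 0.0671), Ifit3 (-0.62, 0.069) and Isg20 (-0.18, 0.166) did not. Macrophage and monocyte markers (4 of 8 tested) summed to 16.9 to 68.5 FPKM at baseline and to 23.6 to 108 with cytokines, and 0 of them passed in the averaged cytokine effect. Of the 8 markers listed for plasmacytoid dendritic cells, strong makers of interferon, 3 were tested and 1 fell. They summed to 118 to 162 FPKM at baseline and 114 to 147 with cytokines. Most of this was Bst2 (99.0 to 140 FPKM), itself interferon-induced and made by other cells too, while Siglech was listed at 0 in 11 libraries and Klk1 in 12.

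Interferon pathway genes outside the 10 were counted by role in the averaged cytokine effect. Of 159 listed genes 119 were tested, 27 fell and 12 rose, with a median change of -0.07. Over all tested genes 6.68% were called lower and 6.57% higher. The counts by role below stand against these same shares, and no list was tested as a set. In single genotypes 20 (WT) and 21 (Adcy10-/-) of them passed, against 499 and 432 of all 10126 tested genes. For genotype or the interaction 0 passed. Of 18 type I interferon ligand genes, 15 were listed at 0 in every library, the highest value of the others was 0.0968 FPKM, and 0 reached the level tested.

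Of the 5 tested receptor genes 2 fell, Ifnar1 (-0.38 ± 0.10, SE), a chain of the type I receptor, and Il10rb (-0.31 ± 0.05), a chain shared with the type III receptor. Among the signaling genes, Tyk2 fell from 12.1 ± 0.4 to 10.2 ± 0.8 FPKM (SD, n = 6), while Jak2, a kinase of other cytokine receptors, rose from 40.2 ± 4.6 to 61.4 ± 5.7. Of 7 interferon regulatory factors, Irf1 (-0.50 ± 0.05, SE) and Irf8 (-0.73 ± 0.18) fell. Of 13 other sensors and adaptors, the DNA sensor Aim2 fell (-0.35 ± 0.07) and the adaptor Myd88 rose (0.21 ± 0.06).

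Of 14 negative regulators 3 rose and 1 fell, with a median change of 0.02 over the list. Socs3, an inhibitor of cytokine receptor signaling, rose from 29.4 ± 5.6 to 68.7 ± 20.1 FPKM (SD, n = 6), Socs1 from 61.3 ± 4.6 to 94.2 ± 18.3 and the phosphatase gene Ptpn2 from 58.0 ± 5.9 to 73.5 ± 4.2. Nlrc5, better known as an activator of MHC class I genes, fell from 19.5 ± 1.1 to 13.5 ± 1.4. None of the 4 genes of ISG15 conjugation passed. Uba7, its activating enzyme, changed by -0.25 ± 0.09 (SE; limma adjusted p = 0.0986), and passed with the number as a block (0.00738).

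Of 28 other antiviral effectors 2 were called lower and 3 higher, beside 6.68% and 6.57% of all tested genes. These counts are not read as a trait of the list. Gm14446, an Ifit1-like gene (Ifit1bl1 in RefSeq) that shares 0.614% of the windows of Ifit1, fell from 2.99 ± 1.20 to 0.399 ± 0.125 FPKM (SD, n = 6). Ifitm2 and Ifitm3, which block viral entry, rose from 36.8 ± 4.8 to 83.2 ± 7.8 and from 14.1 ± 2.8 to 35.4 ± 6.4, and Slfn8 rose from 5.24 ± 1.16 to 7.62 ± 1.23. The baseline and cytokine libraries of Gm14446 and of both Ifitm genes did not overlap. Gm14446 passed the level filter only through baseline libraries (1.26 to 4.40 FPKM, against 0.254 to 0.561 with cytokines), so its fall supports nothing further. Over all tested genes 4.40% lay lower with cytokines without overlap, and the share that lay higher was not counted. Other interferon-induced genes held 15 of 36 lower, among them Phf11b (-0.61 ± 0.10, SE) and Phf11a (-0.51 ± 0.09), and 4 higher, among them the surface antigen genes Ly6a (0.74 ± 0.14) and Ly6c1 (0.54 ± 0.13). Of 6 genes of the type II interferon axis, the transcription factor genes Eomes (-2.89 ± 0.11) and Stat4 (-0.67 ± 0.08) fell. Ifng itself spread from 24.0 to 122 FPKM at baseline and from 21.8 to 61.8 with cytokines and did not pass (-0.85 ± 0.42, SE; limma adjusted p = 0.23).

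**Figure D4:**
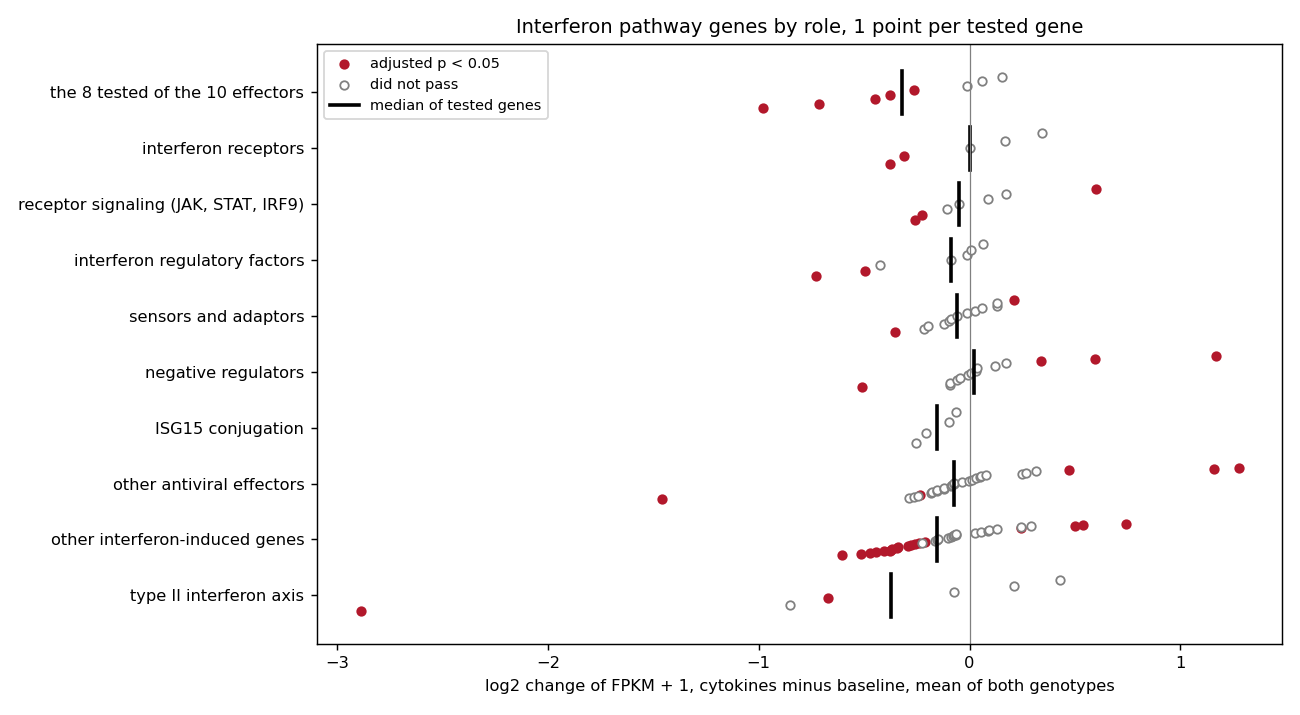
Averaged cytokine effect, as change in log2(FPKM + 1), for each tested gene of the interferon pathway lists, 1 point per gene, with the list median as a bar. Red points passed an adjusted p of 0.05; among negative regulators and other effectors the red points on the right are Socs3 (1.17), Socs1 (0.59), Ptpn2 (0.34), Ifitm3 (1.28), Ifitm2 (1.16) and Slfn8 (0.47), while ISG15 conjugation has none.

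Some of these calls did not hold in every fit that left out 1 library, and such fits called fewer of all genes too. Left out 1 at a time, Ifnar1 did not pass without WT baseline 2, KO baseline 1, KO baseline 3, WT cytokines 2 or KO cytokines 2 (adjusted p up to 0.0609). Irf8 did not pass without WT baseline 2, KO baseline 2, KO baseline 3, WT cytokines 1 or KO cytokines 1 (up to 0.0604), and Ly6c1 not without WT baseline 2 (0.0549). Slfn8 kept its call in 5 of 12 fits (without WT baseline 3, KO baseline 2, WT cytokines 1, WT cytokines 2 or KO cytokines 2) and Myd88 in 2 (without WT baseline 3 or KO baseline 2), with adjusted p up to 0.0893 and 0.0978. Without the 4 libraries numbered 1, Tyk2 (0.0829), Myd88 (0.126), Slfn8 (0.115) and Ly6c1 (0.0553) did not pass.

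Genes among the 5 whose levels were most like the mean of the 8 standardized members, by Pearson r over 12 libraries, were Trp53bp2 (0.91), Serpinb6a (0.90), Acad8 (0.90) and AU019823 (0.90). Trp53bp2 ranged from 5.24 to 5.99 FPKM at baseline and from 4.55 to 5.33 with cytokines.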

How the data were processed

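The authors deposited an FPKM value per gene entry and library. Per the submitters' processing notes, STAR 2.4.0f1, SAMtools 0.1.19, Cufflinks and HTSeq were used with mm9; their roles are not given in the sources used here. Each of the 12 files held 24488 entries for 23991 gene IDs, and the 755 entries of 258 repeated IDs were summed. FPKM keeps no read counts, so precision is known only from the spread between libraries.

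Group means were fitted on log2(FPKM + 1) with limma 3.58.1 (R 4.3.3, with data.table, version 1.17.8; empirical Bayes with trend), without further scaling, over the 10126 genes that reached 1 FPKM in 3 libraries or more. Contrasts were the cytokine effects, genotype effects and their interaction. Figures and permutation tests used Python 3.11.15, numpy 2.4.6, pandas 2.3.3 and matplotlib 3.10.9. The fit was tested on simulated data.

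The 10 genes, the lists and the tests were chosen with earlier results of these data known. Named were the 10 genes, Adcy10, Ifng, up to 4 passing genes per list with the largest averaged cytokine effect (or the smallest p), any list gene passing for genotype or interaction, and the 5 genes most like the members. Other genes named are copies of members, cell markers and ligands. Some genes within the rule are not reported here.

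Residuals of same-numbered libraries within a genotype had correlations of 0.294 to 0.536 (6 pairs), so the blocked fits are given beside the cytokine effects. Across genotypes in 1 medium the correlation of same-numbered libraries was 0.0736 to 0.523 (median 0.32, 6 pairs). The genotype effects above are nevertheless from fits without the block. With it 3 of all genes passed for genotype on average, and no member did. Alternatives were other pseudocounts, filters, scalings, blocks and left-out libraries. Shared 50-base windows come from GENCODE vM21 transcripts.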

Additional observations from a re-analysis of the deposited data

How the results depend on the processing

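Ifit1 and Ifih1 kept their direction and call for the averaged cytokine effect under every alternative run, with changes of -1.43 to -0.84 and -0.77 to -0.40. In counts of the 8 genes called for the cytokine effect, the fit of each genotype alone gave 0 in WT and 3 in Adcy10-/- cells. Of all 10126 genes it called 275 in WT and 314 in Adcy10-/- cells. The replicate block gave 4 in WT and 4 in Adcy10-/- cells (1502 and 1086 genes of all, and 2625 averaged over genotypes, against 499, 432 and 1341 without it), and the replicate block within genotype 3 and 4 (1574, 1193 and 2708 genes). The replicate block gave 3 genes for the averaged genotype effect, and it changed no call of the 8 genes for genotype or interaction. Quantile normalization gave 2 of the 8 in Adcy10-/- cells (431 of all 10126 genes). No level filter gave 2 of the 8 on average (1343 of all 16728 genes then tested). A pseudocount of 0.1, chosen after the data were seen, gave 17 called pairs of genes against 11, and a permutation with the replicate block (media swapped within number and genotype), also added later, gave 0. Changes next to 0 crossed it under other settings. Ddx58 in WT cells was 0.0022 and 0.0001 with pseudocounts of 0.1 and 0.5, 0.0047 with median-ratio scaling and 0.015 with quantile normalization, which gave 0.0009 on average. For genotype with cytokines Ifih1 was 0.0043 and 0.0001 with these pseudocounts and 0.0046 and 0.0179 with these scalings, and Isg20 0.0093 with median-ratio scaling. The interaction of Ifit2 was 0.0026 and 0.0012 with these pseudocounts and 0.0074 with median-ratio scaling.

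Without the 4 libraries numbered 1, also chosen after the data were seen, 0 of the 8 passed in WT cells and 2 on average. Of all 10126 genes 353 passed in WT cells, 205 in Adcy10-/- cells and 903 on average. For genotype 2 passed with cytokines and 2 on average, and 1 passed for the interaction. There Isg15 changed sign for the cytokine effect in Adcy10-/- cells (-0.068) and on average (-0.0493), for genotype at baseline (0.0895), with cytokines (0.0521) and on average (0.0708), and for the interaction (-0.0374). So did Ddx58 for genotype at baseline (0.0558) and on average (0.0158), Ifit3 (0.0485) and Usp18 (0.15) for genotype with cytokines, and Isg20 (0.0056) for the averaged genotype effect. Ifih1 (0.15) and Isg20 (0.0291) did so for genotype with cytokines, Ddx58 (0.0397) for the cytokine effect in WT cells and Usp18 (-0.0041) for that in Adcy10-/- cells. The cause was not tested.

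Leaving out 1 library at a time, the 8 genes gave 0 to 3 calls in WT cells, 1 to 3 in Adcy10-/- cells and 2 to 4 on average, and all genes 164 to 536, 196 to 465 and 910 to 1300. Genotype with cytokines, averaged genotype and the interaction gave 0 to 1 genes each. Changes that crossed 0, of which none was called, ranged as follows. For the averaged cytokine effect Ddx58 ranged from -0.0708 to 0.0703 and Isg15 from -0.11 to 0.20. For the cytokine effect in Adcy10-/- cells Ddx58 ranged from -0.12 to 0.0575, Isg15 from -0.19 to 0.44 and Usp18 from -0.074 to 0.25. In WT cells Ddx58 ranged from -0.12 to 0.16 and Isg15 from -0.19 to 0.15. For genotype at baseline Ddx58 ranged from -0.12 to 0.13, Ifih1 from -0.0653 to 0.14, Ifit1 from -0.11 to 0.32, Ifit2 from -0.07 to 0.20, Ifit3 from -0.17 to 0.49, Isg15 from -0.58 to 0.0393, Isg20 from -0.12 to 0.0821 and Usp18 from -0.0346 to 0.29. For genotype with cytokines Ddx58 ranged from -0.14 to 0.0736, Ifih1 from -0.0555 to 0.0963, Ifit1 from -0.16 to 0.0485, Ifit2 from -0.06 to 0.14, Ifit3 from -0.23 to 0.0046, Isg15 from -0.30 to 0.0397, Isg20 from -0.0798 to 0.0416 and Usp18 from -0.22 to 0.0947. For the averaged genotype effect Ddx58 ranged from -0.0868 to 0.0429, Ifih1 from -0.0334 to 0.0716, Ifit1 from -0.0915 to 0.12, Ifit2 from -0.0076 to 0.13, Ifit3 from -0.16 to 0.17, Isg20 from -0.061 to 0.0393 and Usp18 from -0.0376 to 0.14. For the interaction Ddx58 ranged from -0.18 to 0.10, Ifih1 from -0.14 to 0.0638, Ifit1 from -0.39 to 0.0311, Ifit2 from -0.14 to 0.12, Ifit3 from -0.64 to 0.0186, Isg15 from -0.15 to 0.48, Isg20 from -0.0856 to 0.12 and Usp18 from -0.37 to 0.0177. Absolute depth is unknown, so what it limits for Mx1 and Rsad2 cannot be given.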
